A study of Mus musculus with 10 samples.

Results

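The 72 h withdrawal group consisted of 2 of the 10 RNA-seq libraries of a mouse cell culture series, and the 2 untreated libraries were its controls, so that 4 of 10 libraries entered the main comparison. The cells were ER-Hoxa9-Lys-GFP cells of the C57BL/6 strain, a cultured myeloid progenitor line grown in RPMI with serum and stem cell factor conditioned medium. They express the transcription factor Hoxa9 joined to a hormone-binding estrogen receptor domain, and the name also carries a lysozyme GFP reporter. All groups share this fusion and this reporter. In the untreated group estradiol (E2), the ligand that keeps the fusion active, was left in the medium. In the 72 h group E2 was removed for 72 h by washing and was then added back for 48 h, so the cells were followed for 120 h in all. For tests of where the 72 h group differed from its neighbours, the libraries with 40 h of withdrawal and 80 h of add-back and those with 120 h of withdrawal and no add-back (2 of each) were used. No test of the libraries with 24 h of withdrawal and 96 h of add-back is reported. They are given as levels and list medians, and they entered the estimate of spread that all 10 libraries share. The study asked at which point withdrawal commits the cells so that returning E2 no longer restores the starting state. The labels number the libraries 1 and 2 and do not say whether they came from separate cultures or from 1 clone, so the p-values reflect no more than how these libraries vary, which may be technical.

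Hoxa9 is a homeodomain transcription factor of immature blood cells, and with its partner Meis1 it holds myeloid progenitors in a dividing, undifferentiated state. When it is switched off, such cells differentiate along the granulocyte and monocyte lines. Granulocytes make the proteins of their granules in order: the enzymes of primary (azurophil) granules, such as myeloperoxidase and elastase, at the promyelocyte stage, those of secondary granules, such as lactoferrin, at the myelocyte stage, and mature neutrophil proteins later. The C/EBP factors and PU.1 are the best known activators of these genes.

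RNA levels are given as RPKM, reads scaled for transcript length and for the number of reads in the library, for 1 transcript per gene. The denominators of the 10 libraries were 173622000 to 204388000 reads, so a read on a transcript of 2 kb was worth 0.00245 to 0.00288 RPKM. Fold changes are differences of log2(RPKM + 1), which understates the change of low genes, and a gene was called at a Benjamini-Hochberg adjusted p under 0.05 in limma over 13004 tested genes. Of the variance between libraries 83.7% lay on principal component 1, and component 2 (12.3%) set the 72 h libraries (45 and 47.5) apart from the other 8 (-21.3 to 3.48). Genes encoded by the mitochondrial genome took 2.59 and 3.06% of the RPKM of coding genes in the 72 h libraries, 1.57 and 1.41% in the untreated libraries and 1.41 to 2.11% in the 8 libraries outside the 72 h group. A fit of the 2 libraries of each group to sampling noise alone gave 121 as chi-square per degree of freedom for the 72 h pair, 45.2 for the untreated pair and 529 for the 120 h pair, so no pair was a library counted a second time.

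The sequences below, from RefSeq (GRCm38.p6), run from 250 bases before to 50 bases after the start site of the 4 most raised genes that have an entry, of the most lowered gene and of Meis1. Capitals mark matches to the C/EBP motif TTNNGNAA or to the PU.1 motif GAGGAAG on either strand, and the 2 motifs do not overlap in these windows.
Ly6c2 (chr15:75111922-75112221, minus strand): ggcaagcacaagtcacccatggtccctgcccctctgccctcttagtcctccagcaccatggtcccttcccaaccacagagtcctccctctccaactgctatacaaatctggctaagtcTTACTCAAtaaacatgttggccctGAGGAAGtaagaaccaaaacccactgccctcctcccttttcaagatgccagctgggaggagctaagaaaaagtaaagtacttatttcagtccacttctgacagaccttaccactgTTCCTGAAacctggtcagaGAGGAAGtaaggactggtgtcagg
Chil3 (chr3:106167515-106167814, minus strand): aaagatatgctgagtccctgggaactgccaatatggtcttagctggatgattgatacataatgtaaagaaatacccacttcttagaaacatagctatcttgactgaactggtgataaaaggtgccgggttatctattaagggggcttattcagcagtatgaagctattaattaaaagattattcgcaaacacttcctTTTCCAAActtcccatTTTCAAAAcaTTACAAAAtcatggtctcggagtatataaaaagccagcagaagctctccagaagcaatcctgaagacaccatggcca
Ms4a3 (chr19:11640802-11641101, minus strand): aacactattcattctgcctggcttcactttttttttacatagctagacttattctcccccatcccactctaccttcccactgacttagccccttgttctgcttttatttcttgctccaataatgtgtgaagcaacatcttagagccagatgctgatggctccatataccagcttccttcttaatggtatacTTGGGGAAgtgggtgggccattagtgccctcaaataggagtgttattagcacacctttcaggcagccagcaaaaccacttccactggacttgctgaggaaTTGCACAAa
S100a9 (chr3:90695672-90695971, minus strand): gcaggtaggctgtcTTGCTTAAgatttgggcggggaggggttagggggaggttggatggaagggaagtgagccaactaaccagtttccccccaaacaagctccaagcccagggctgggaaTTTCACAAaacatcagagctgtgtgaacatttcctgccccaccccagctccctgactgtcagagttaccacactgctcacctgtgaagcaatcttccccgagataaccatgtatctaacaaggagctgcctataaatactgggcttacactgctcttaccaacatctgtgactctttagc
Aebp1 (chr11:5861616-5861915, plus strand): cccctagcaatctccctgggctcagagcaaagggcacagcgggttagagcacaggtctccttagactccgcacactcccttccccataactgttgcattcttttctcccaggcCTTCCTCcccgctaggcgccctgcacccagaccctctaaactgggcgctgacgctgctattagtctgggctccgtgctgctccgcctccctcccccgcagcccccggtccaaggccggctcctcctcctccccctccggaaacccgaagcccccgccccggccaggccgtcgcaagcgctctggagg
Meis1 (chr11:19018920-19019219, minus strand): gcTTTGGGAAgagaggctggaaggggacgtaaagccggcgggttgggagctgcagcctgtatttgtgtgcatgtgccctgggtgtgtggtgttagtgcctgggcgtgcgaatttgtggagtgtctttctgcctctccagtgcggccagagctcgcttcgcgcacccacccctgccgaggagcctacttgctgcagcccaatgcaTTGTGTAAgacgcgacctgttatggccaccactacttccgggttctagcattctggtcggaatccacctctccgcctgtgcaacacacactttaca
The Ly6c2 window held 2 matches of each motif, Chil3 held 3 of the C/EBP motif, and Ms4a3, S100a9 and Meis1 held 2 each. Aebp1 held 1 match to the PU.1 motif and none to the C/EBP motif. Among the 7348 tested genes with a RefSeq promoter whose start lay within 100 bases of the chosen transcript, 31.3% held the C/EBP motif and 13.7% the PU.1 motif. Of the 284 such genes called at least 2-fold higher at 72 h than in untreated cells, 136 (47.9%) held the C/EBP motif and 67 (23.6%) the PU.1 motif. Of the 401 called at least 2-fold lower, 120 (29.9%) held the C/EBP motif and 55 (13.7%) the PU.1 motif. The AP-1 motif TGANTCA was found in 4.6% of all these promoters, in 11.6% of the raised and in 6.73% of the lowered genes, and a pair of GAAA words 2 bases apart, the core of the interferon response motif, in 3.31%, 9.51% and 4.24%. These are matches of letters and do not show binding.

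Cells that had spent 72 h without E2 and 48 h with it again carried a granulocyte and monocyte pattern of RNA. No library of the 72 h group was taken before E2 was added back, so whether this pattern was there then was not measured. Ly6c2, Chil3, Ms4a3, S100a8, S100a9 and Elane, all genes of differentiating myeloid cells, stood at 0.262 to 4.55 RPKM in untreated cells and at 99.2 to 608 RPKM at 72 h. Of the 13004 tested genes 2803 (21.6%) were called higher and 2905 (22.3%) lower than in untreated cells, and 492 (3.78% of those tested) were called at least 2-fold higher and 724 (5.57%) at least 2-fold lower. Together 43.9% were called in either direction. The median log2 fold change over all tested genes was 0.02. In bulk RNA more cells of a type and more RNA per cell cannot be told apart. Counts depended on single libraries: 1594 genes were called higher without untreated replicate 1, 1693 without untreated replicate 2 and 1670 without 72 h replicate 2, and 1890 were called lower without untreated replicate 2.

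**Figure D1:**
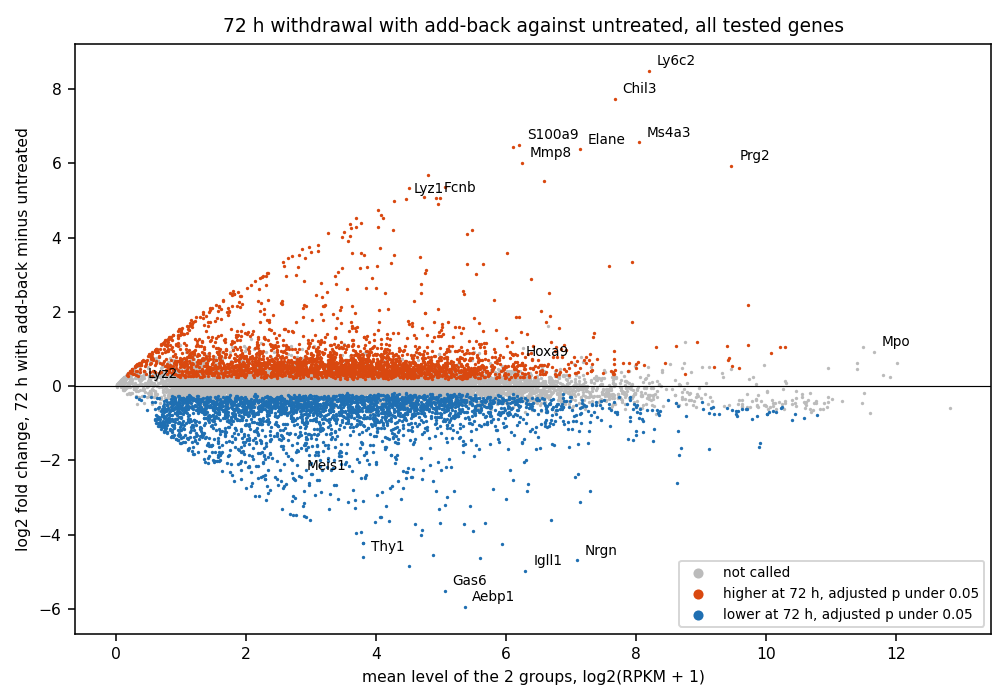
Log2 fold change of the 72 h group against untreated cells (vertical axis, in log2 units of RPKM + 1) against the mean level of the 2 groups (horizontal axis, log2 units) for the 13004 tested genes, each a point, with called genes in colour and 18 genes named. The most raised genes, Ly6c2 (8.50) and Chil3 (7.74), and the most lowered, Aebp1 (-5.95) and Gas6 (-5.52), lie far from the cloud of uncalled genes around 0.

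The state of the Hoxa9 system was read first. Hoxa9 RNA stood at 50.2 and 60 RPKM in the untreated libraries and 73.4 and 102 at 72 h (log2 fold change 0.65, SE 0.16, adjusted p = 0.0116). Esr1, the estrogen receptor gene, stood at 5.87 and 7.19 RPKM in untreated cells and 8.74 and 11.9 at 72 h (log2 fold change 0.58, SE 0.15, adjusted p = 0.0136). Reads of the fusion cannot be separated here from those of the endogenous genes. In both genes the lower 72 h library stood above both untreated libraries, but the calls were lost without untreated replicate 1 (Hoxa9 0.52, adjusted p = 0.0868; Esr1 0.45, adjusted p = 0.101) and without 72 h replicate 2 (Hoxa9 0.41, adjusted p = 0.0665; Esr1 0.38, adjusted p = 0.0853). Neither gene was lower at 72 h than in untreated cells.

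Meis1, which encodes the Hoxa9 partner, fell from 10.6 and 11.2 RPKM to 1.28 and 1.19 at 72 h (log2 fold change -2.41, SE 0.13, adjusted p = 3.37e-06). The 40 h libraries, at 7.34 and 9.18, were nearer the untreated ones than those of 72 h, and the 120 h libraries stood at 0.706 and 1.1. The test of 72 h against 40 h gave a log2 difference of -2.04 (adjusted p = 1.62e-05), and that against 120 h gave 0.24 (SE 0.13, adjusted p = 0.12), which became 0.39 (adjusted p = 0.0199) without 120 h replicate 2. Of the 7 tested Hox, Meis and Pbx genes 4 fell: Meis1, Pbx4 (-1.42), Pbx3 (-0.67) and Pbx2 (-0.40), the Pbx genes encoding homeodomain cofactors. Hoxa7 and Hoxa10 were at or below 0.002 RPKM in the 4 libraries of the comparison.

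Kit, the stem cell factor receptor, measured 152 and 158 RPKM in untreated cells and 99.9 and 106 at 72 h. The difference was not called (log2 fold change -0.58, SE 0.21, adjusted p = 0.0561) although the groups did not overlap, and it was called when the 120 h group was left out (adjusted p = 0.000882) or when only the 2 groups were fitted (adjusted p = 0.00171). In the 120 h libraries Kit stood at 26.7 and 15.4 RPKM, far below the 72 h level (log2 fold change 2.29, SE 0.21, adjusted p = 2.44e-05). Lyz2, the lysozyme gene of mature myeloid cells, was near the floor in both groups, at 0.298 and 0.233 RPKM in untreated cells and 0.21 and 0.426 at 72 h (log2 fold change 0.05, SE 0.17, adjusted p = 0.814), and reached 2.68 and 4.29 at 120 h. Its neighbour Lyz1, by contrast, went from 0.147 and 0.121 to 21.1 and 63.2 RPKM (log2 fold change 5.05, SE 0.41, adjusted p = 3.39e-05). The chosen transcripts of Lyz1 and Lyz2 share 16.1 and 15.4% of their 50-base windows, so part of their reads could be split between them. All groups share the lysozyme GFP reporter, and whether it affects the reads of Lyz2 was not tested.

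**Figure D2:**
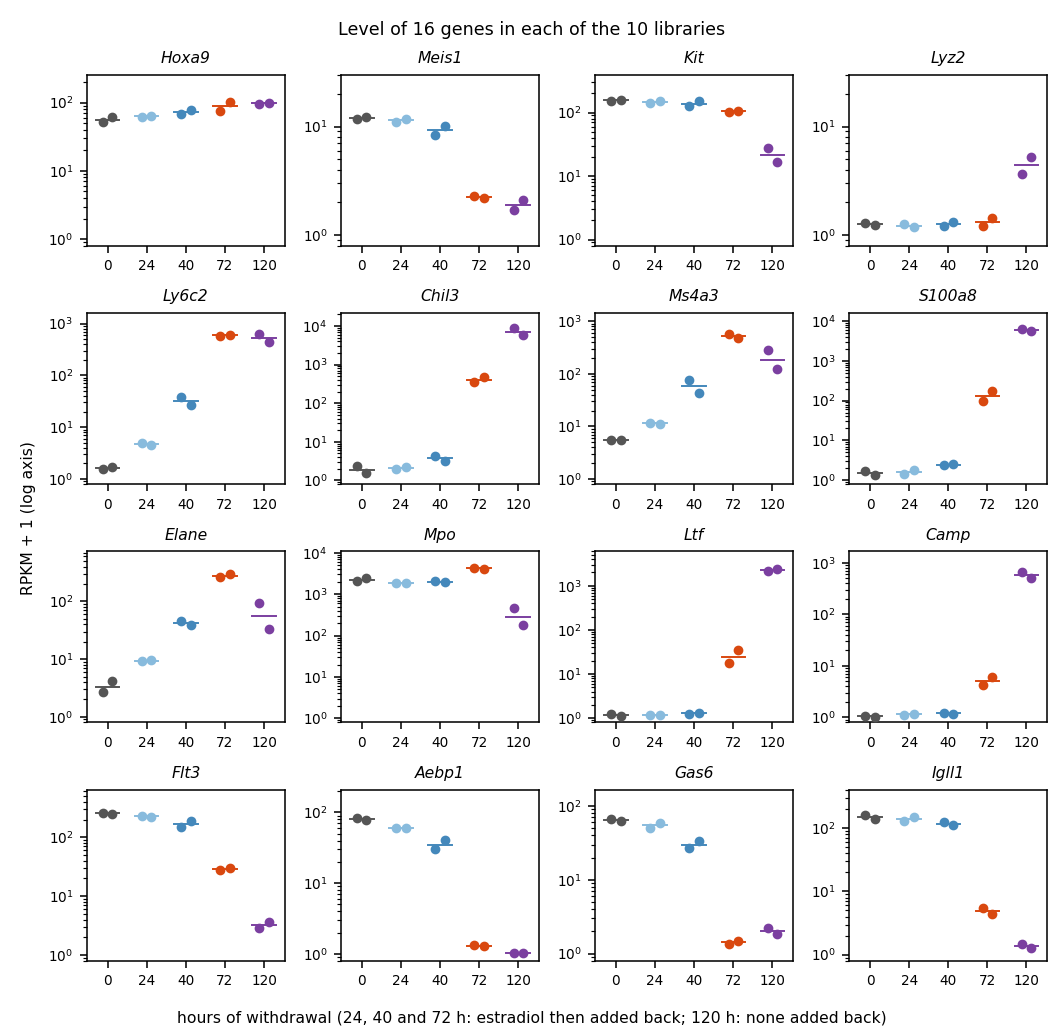
RPKM + 1 on a log axis (vertical) for 16 genes in the 10 libraries, by hours of withdrawal (horizontal); each point is a library and each bar the geometric mean of a group. Meis1, Flt3, Aebp1, Gas6 and Igll1 drop between 40 h and 72 h, Elane, Ms4a3 and Mpo are highest at 72 h, and Chil3, S100a8, Ltf and Camp are at 72 h between the untreated and the 120 h libraries.

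Primary granule genes rose in most cases. Of 20 listed genes 18 passed the minimum level, and 12 of them were called higher and 1 lower, with a median log2 fold change of 1.06 (over all tested genes 21.6% were higher, 22.3% lower and the median was 0.02). Elane, which encodes neutrophil elastase, measured 1.68 and 3.19 RPKM in untreated cells, 44.6 and 37.5 at 40 h, 262 and 294 at 72 h and 94 and 32.2 at 120 h. Both 72 h libraries stood above all libraries of the other groups (log2 fold change 6.38, SE 0.42, adjusted p = 1.14e-05).

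Ms4a3, a membrane protein of granulocyte and monocyte progenitors, behaved alike, at 4.55 and 4.49 RPKM in untreated cells, 76.7 and 41.9 at 40 h, 575 and 474 at 72 h and 279 and 122 at 120 h (log2 fold change 6.57, SE 0.38, adjusted p = 5.35e-06). Prtn3, which encodes proteinase 3, measured 289.9 and 323 in untreated cells and 1455 and 1330 at 72 h (log2 fold change 2.18, SE 0.34, adjusted p = 0.00129). It was already abundant before withdrawal, and its rise was smaller on the log scale than that of Elane. Igsf6, an immunoglobulin superfamily gene of myeloid cells, measured 1.1 and 0.944 RPKM in untreated cells and 57.6 and 61.2 at 72 h (log2 fold change 4.90, SE 0.15, adjusted p = 2.87e-07), and Fcnb, ficolin B, 0.778 and 0.625 RPKM in untreated cells and 46.1 and 69.5 at 72 h (log2 fold change 5.08, SE 0.24, adjusted p = 1.88e-06).

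Mpo and Ctsg, both abundant before withdrawal, were not called. Mpo, myeloperoxidase, measured 2042 and 2433 RPKM in untreated cells and 4334 and 4137 at 72 h, groups that did not overlap (log2 fold change 0.93, SE 0.38, adjusted p = 0.0838). Leaving out the 120 h group brought its adjusted p to 0.000529. Ctsg, cathepsin G, measured 1617 and 1692 RPKM in untreated cells and 2434 and 2208 at 72 h (log2 fold change 0.49, adjusted p = 0.287; 0.00682 without the 120 h group). The member called lower, named after its values were seen like the other exceptions given beside counts, was Nkg7 (-1.67), a granule gene also known from cytotoxic lymphocytes. The summed level of the list was 5790 and 6277 RPKM in untreated libraries and 12760 and 11680 at 72 h.

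Secondary granule genes rose too, but from near 0 and to low levels. Of 29 listed genes 26 were tested, most of them able to pass the minimum through the 120 h libraries, where they are high, and 20 were called higher and 1 lower at 72 h (median 1.72). Chil3, a chitinase-like protein of neutrophils and macrophages, measured 1.33 and 0.531 RPKM in untreated cells, 3.22 and 2.24 at 40 h, 349 and 462 at 72 h and 8692 and 5850 at 120 h (log2 fold change 7.74, SE 0.26, adjusted p = 4.06e-07). Mmp8, neutrophil collagenase, measured 1.18 and 1.48 RPKM in untreated cells and 132 and 166 at 72 h (log2 fold change 6.01, SE 0.24, adjusted p = 8.3e-07). For both genes the groups were far apart.

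Ltf, which encodes lactoferrin, measured 0.232 and 0.143 RPKM in untreated cells, 16.6 and 33.9 at 72 h and 2188 and 2405 at 120 h (log2 fold change 4.38, SE 0.26, adjusted p = 6e-06). Ngp, neutrophilic granule protein, measured 0.511 and 0.242 (untreated), 22.7 and 41.4 (72 h) and 3846 and 3347 (120 h) in the same groups (log2 fold change 4.53, SE 0.24, adjusted p = 3.11e-06). Camp, the cathelicidin precursor, measured 0.065 and 0.028 (untreated), 3.28 and 5.18 (72 h) and 668 and 509 (120 h) (log2 fold change 2.30, SE 0.18, adjusted p = 3.06e-05). In all 3 genes 72 h replicate 2 was above replicate 1 and both were above every untreated, 24 h and 40 h library. Against 120 h the log2 differences were -6.53, -6.82 and -6.83 (adjusted p = 4.82e-07, 3.3e-07 and 1.8e-07). Padi4, the enzyme that citrullinates histones in neutrophils, was at 1.05 and 1.48 RPKM in untreated cells and 1.92 and 2.63 at 72 h and was not called (0.53, adjusted p = 0.0618), but was without the 120 h group (0.0165) or with only the 2 groups fitted (0.0344). Tcn2, transcobalamin 2, was the member called lower (-0.57). The median of this list moved with the pseudocount, to 2.49 with 0.1 and 0.87 with 5, and was 3.10 with voom on recovered reads.

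Among genes of late neutrophils 33 of 34 were tested, and 23 were called higher and 3 lower (median 0.98; 2.56 with a pseudocount of 0.1, 0.35 with 5 and 3.26 with voom). S100a8 and S100a9 encode the subunits of calprotectin. S100a8 measured 0.749 and 0.318 RPKM in untreated cells and 99.3 and 173 at 72 h (log2 fold change 6.44, SE 0.25, adjusted p = 7.73e-07), and S100a9 0.848 and 0.262 RPKM in untreated cells and 99.2 and 191 at 72 h (log2 fold change 6.50, SE 0.28, adjusted p = 1.26e-06). At 120 h S100a8 stood at 6385 and 5695 RPKM and S100a9 at 6761 and 7027. Stfa1, a stefin protease inhibitor, measured 0.597 and 0.434 RPKM in untreated cells and 46.5 and 81.8 at 72 h (log2 fold change 5.37, SE 0.22, adjusted p = 1.03e-06), and Retnlg, resistin-like gamma, 0.113 and 0.177 RPKM in untreated cells and 23.3 and 38 at 72 h (log2 fold change 4.75, SE 0.23, adjusted p = 1.97e-06). The stefin genes are related copies, and Stfa2 and Stfa2l1 share 14.7 and 16.8% of their 50-base windows.

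Not all neutrophil genes moved. Csf3r, the receptor for granulocyte colony-stimulating factor, measured 14.1 and 17.5 RPKM in untreated cells and 16.5 and 22.7 at 72 h (0.29, adjusted p = 0.367), and overlapped between the groups. Cd33, a sialic acid binding receptor, measured 72.2 and 77 RPKM in untreated cells and 73 and 86.4 at 72 h (0.09, adjusted p = 0.599). The 3 lower members were the chemokine-binding receptor Ccrl2 (-0.80), the lectin receptor Clec4e (-0.62) and the Myc antagonist Mxd1 (-0.61). The summed level of the 33 genes was 408 and 454 RPKM in untreated cells, 1256 and 1493 at 72 h, and 29200 and 28680 at 120 h.

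Monocyte and macrophage genes rose beside the granulocyte genes. Of 40 listed genes 36 were tested, 26 were called higher and 3 lower (median 1.61; 2.91 with a pseudocount of 0.1, 0.85 with 5 and 3.01 with voom). Ly6c2, a surface antigen of inflammatory monocytes and their precursors, had the largest rise of any named gene, from 0.571 and 0.683 RPKM in untreated cells through 4.05 and 3.45 at 24 h and 37.6 and 25.8 at 40 h to 568 and 608 at 72 h (log2 fold change 8.50, SE 0.21, adjusted p = 1.54e-07). The 120 h libraries held 638 and 430 RPKM, and the test of 72 h against 120 h gave 0.17 (SE 0.21, adjusted p = 0.49). Its paralog Ly6c1 went from 0.093 and 0.034 to 50.1 and 56.9 RPKM (5.68). The 2 paralogs share 31.7 and 32.6% of their 50-base windows, so their single values are uncertain.

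Other macrophage genes were further from their 120 h level. Gpnmb, a membrane glycoprotein of macrophages, measured 0.077 and 0.037 RPKM in untreated cells, 19.3 and 28.2 at 72 h and 292 and 237 at 120 h (log2 fold change 4.53, SE 0.17, adjusted p = 5.8e-07). Cd14, a co-receptor for bacterial lipopolysaccharide, measured 0.212 and 0.094 (untreated), 12.8 and 17.5 (72 h) and 190.2 and 213 (120 h) (log2 fold change 3.80, SE 0.14, adjusted p = 6.27e-07). Csf1r, the receptor for macrophage colony-stimulating factor, measured 1.61 and 1.7 (untreated), 14.2 and 20.2 (72 h) and 199 and 285 (120 h) (log2 fold change 2.75, SE 0.19, adjusted p = 1.41e-05). Irf8, a transcription factor of monocytes, was not called, at 13.6 and 12.6 RPKM in untreated cells and 14.8 and 15.7 at 72 h (log2 fold change 0.21, adjusted p = 0.157), but was with the most abundant transcript of each gene (0.039). The complement gene C1qb was not called either, at 0.684 and 0.433 RPKM in untreated cells and 0.691 and 1.52 at 72 h, except without 72 h replicate 1 (0.0211). The members called lower were the chemokine receptor Ccr2 (-1.41), Emilin2 (-0.66) and Cd63 (-0.50), and 1 was called lower without untreated replicate 2 or without 72 h replicate 1. In 33 of the 36 tested genes 72 h replicate 2 stood above replicate 1, by a median of 0.40 on the log2 scale, and the list median without replicate 1 was 1.86.

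Markers of other blood cells moved with these genes. Of 25 listed mast cell, basophil and eosinophil genes 17 were tested, with 9 higher and 5 lower. Prg2, the eosinophil major basic protein, measured 12.9 and 36.3 RPKM in untreated cells, 234 and 173 at 40 h, 1484 and 1306 at 72 h and 471 and 250.5 at 120 h (log2 fold change 5.93, SE 0.45, adjusted p = 2.53e-05). Its paralog Prg3 measured 5.92 and 13.7 RPKM in untreated cells and 89.7 and 73.1 at 72 h (log2 fold change 3.02, SE 0.38, adjusted p = 0.000401), Ccr1, a chemokine receptor of several myeloid cells, 0.055 and 0.11 RPKM in untreated cells and 6.63 and 9.55 at 72 h (3.05), and Ear2, an eosinophil ribonuclease, was listed at 0 in both untreated libraries and at 4.64 and 4.83 at 72 h. The lower members were Mcpt8 (-2.04), Cpa3 (-1.98), Prss34 (-0.85), Gata2 (-0.78) and Siglecf (-0.63). Of these, Mcpt8, Cpa3 and Prss34 encode proteases of basophils and mast cells, and Siglecf a receptor of eosinophils. The summed list stood at 235 and 274 RPKM before withdrawal and at 1671 and 1484 RPKM at 72 h. Prg2 alone made up 12.9 and 36.3 RPKM of the sum before withdrawal and 1484 and 1306 at 72 h. The rise of the sum was therefore that of Prg2 and not of the list. Fcer1a, Il4 and Il13 were listed at 0 in all 4 libraries. The part of such cells in the granule gene results was not tested.

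Dendritic cell and MHC class II genes (14 tested of 21) had 2 higher and 6 lower. Cd74, the invariant chain, rose from 1.69 and 1.2 to 7.86 and 19.2 RPKM (log2 fold change 2.46, SE 0.36, adjusted p = 0.000955), with a wide gap between the 72 h libraries, and Irf4 rose by 0.67. H2-Ob fell from 10.9 and 11.1 to 0.434 and 0.534 (-3.02) and H2-DMa from 31.2 and 29.6 to 7.57 and 7.78 (-1.86), both of them genes that act in MHC class II loading. Xcr1 and Clec9a, defining receptors of dendritic cells, were at most 0.021 RPKM in the 4 libraries.

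Transcription factors of the myeloid lines followed in part. Of those tested 40.0% were called higher and 17.1% lower, where 21.6% and 22.3% of all tested genes were. Among the 35 tested, 8 reached the minimum level through the 120 h libraries alone. Of 38 listed 35 were tested, with 14 higher and 6 lower (median 0.22); without 72 h replicate 2 the higher count was 9, and without untreated replicate 2 the lower count was 3. Tfec, a relative of the lysosomal regulator Mitf, went from 3.44 and 3.64 RPKM to 85.3 and 81.9 (log2 fold change 4.22, SE 0.20, adjusted p = 2.12e-06) and was lower again at 120 h, at 34 and 21.7. Cebpe, the C/EBP factor of secondary granule genes, went from 6.8 and 7.6 to 41.6 and 36.3 (log2 fold change 2.28, SE 0.19, adjusted p = 4.25e-05). Cebpd measured 2.2 and 2.1 RPKM in untreated cells and 8.83 and 10.1 at 72 h (1.73) and the AP-1 member Fosl2 1.97 and 2.37 RPKM in untreated cells and 9.48 and 11.5 at 72 h (1.85). The groups did not overlap for any of these 4 factors. All 4 are raised, and the 6 lower members are not named in this paragraph. Id2, an inhibitor of helix-loop-helix factors, was not called, at 4.68 and 3.94 RPKM in untreated cells, 3.39 and 5.91 at 72 h and 157 and 217 at 120 h. The AP-1 member Junb was not called either, at 9.15 and 9.17 (untreated), 8.83 and 10.6 (72 h) and 52.5 and 71.7 (120 h) RPKM in the same groups.

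Surface and effector genes of phagocytes rose in part. Itgam, the integrin subunit CD11b, measured 1.88 and 2.2 RPKM in untreated cells, 21.4 and 35.1 at 72 h and 445 and 583 at 120 h (log2 fold change 3.23, SE 0.21, adjusted p = 1.06e-05). Of 29 tested genes for phagocyte adhesion and Fc receptors, 15 were higher (51.7%) and 6 lower (20.7%), against 21.6% and 22.3% of all tested genes. Their summed level did not rise, at 1459 and 1556 RPKM in untreated cells and 1377 and 1426 at 72 h. Fcgr3 and Fermt3 were not called (0.23 and -0.25), although both were without the 120 h group (adjusted p = 0.0218 and 0.0088). Of the 6 NADPH oxidase genes 4 rose, among them the membrane subunit Cybb, from 0.085 and 0.049 to 5.4 and 9.45 RPKM (2.94), its partner Cyba (0.37) and the cytosolic subunit Ncf1 (0.45). The call of Cyba was lost without each single library of the untreated, 24 h or 40 h groups or without 72 h replicate 1 (adjusted p = 0.0634 to 0.228), and that of Ncf1 with quantile normalization (adjusted p = 0.063). Lysosome genes were 14 higher and 5 lower of 29 tested, led by the cathepsin Ctss, from 3.99 and 2.69 to 19.7 and 34.1 (2.65), the sialidase Neu1 (1.35) and Lamp1 (1.10). Among the lower lysosome genes were Ctsl (-0.65), Glb1 (-0.41) and Npc2 (-0.41), and 2 were called lower without untreated replicate 2 or without 72 h replicate 1.

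Cytokine receptors split. Of 28 tested receptors for growth factors and cytokines 12 were higher and 9 lower: Il6ra went from 1.8 and 1.81 to 14.1 and 16.3 RPKM (2.53) and Csf2ra, the alpha chain for GM-CSF, from 17.2 and 17.5 to 50.9 and 59.2 (1.61), while Flt3 fell (below). Among 24 tested cytokines and chemokines 9 were higher and 3 lower (14 higher without the 120 h group). The chemokine Ccl3 went from 9.64 and 10.1 to 36.6 and 47.7 (1.98) and Ccl2 from 0.337 and 0.223 to 2.11 and 3.99 (1.62). The lower ones were the cytokine Il6, from 5.12 and 5.61 to 0.394 and 0.701 (-2.05), Tnfsf9 (-0.99) and Ccl9 (-0.69). Il1b was at 0.198 and 0.205 RPKM in untreated cells and 0.794 and 2.69 at 72 h and was not called (1.10, adjusted p = 0.0517), with the 72 h libraries wide apart. It was called without the 120 h group (adjusted p = 0.00938), with only the 2 groups fitted (0.0401) and with a pseudocount of 0.1 (0.00711).

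Interferon stimulated genes were the list on which the 72 h libraries differed most from each other. Of 34 tested genes 15 were higher and 5 lower than in untreated cells (median 0.58; 1.02 with a pseudocount of 0.1, 0.18 with 5 and 1.05 with voom), and all 34 stood higher in 72 h replicate 2 than in replicate 1, by a median of 0.45 on the log2 scale. Without replicate 2 the count of higher genes was 9 and the median 0.32. The dsRNA sensor Ifih1 measured 1.87 and 2.14 RPKM in untreated cells and 5 and 7.29 at 72 h (log2 fold change 1.23, SE 0.17, adjusted p = 0.00066), and Ifit3 0.062 and 0.049 RPKM in untreated cells and 1.63 and 3.28 at 72 h (log2 fold change 1.67, SE 0.25, adjusted p = 0.00102). Usp18, which removes ISG15 from proteins, measured 0.376 and 0.317 RPKM in untreated cells and 1.61 and 2.98 at 72 h (1.26). The lower genes were Ifitm3 (-1.16), Isg20 (-0.92), Ddx58 (-0.63), Ifi27 (-0.51) and Bst2 (-0.42). Without untreated replicate 2 or without 72 h replicate 1, 2 were called lower. The summed level of the list was 189 and 253 RPKM at 72 h, below the 281 and 282 of untreated cells.

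**Figure D3:**
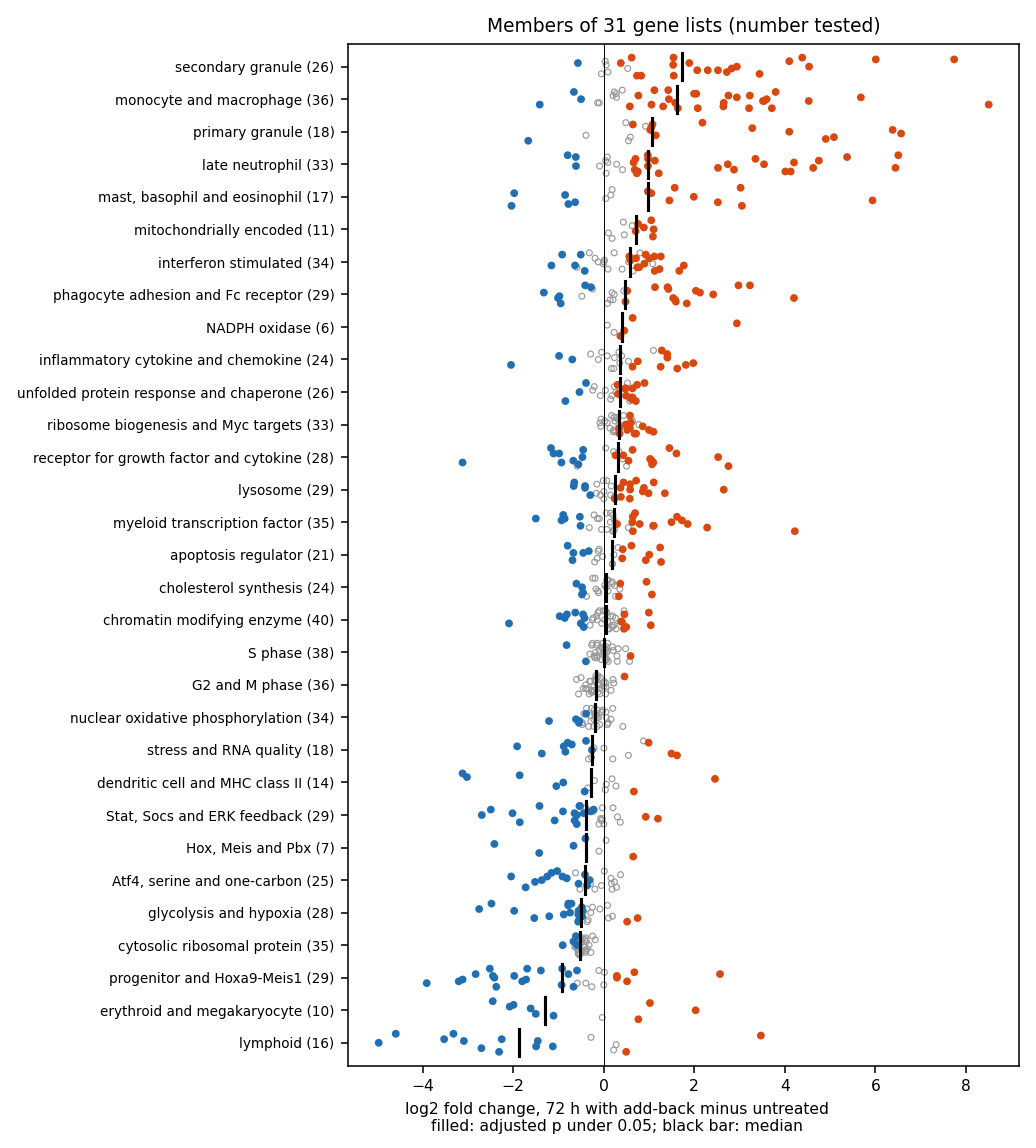
Log2 fold change of the 72 h group against untreated cells (horizontal axis) for the tested members of 31 gene lists (rows, ordered by median); filled points were called, open points were not, and black bars are medians. Secondary granule (1.72) and monocyte and macrophage genes (1.61) have the highest medians with a pseudocount of 1 and lymphoid genes (-1.87) the lowest, and each of these lists holds members on both sides of 0. The order of the highest lists changes with the pseudocount.

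Most genes of the progenitor list fell. Of 36 listed progenitor and Hoxa9-Meis1 genes 29 were tested, with 18 lower and 5 higher (median -0.92). Flt3, a cytokine receptor of early progenitors, measured 257 and 250.1 RPKM in untreated cells, 149.5 and 191 at 40 h, 27.2 and 29.5 at 72 h and 1.88 and 2.64 at 120 h (log2 fold change -3.12, SE 0.14, adjusted p = 1.48e-06). Hlf, a transcription factor of stem cells, measured 56.1 and 62.6 (untreated), 38 and 41.9 (40 h), 5.92 and 5.21 (72 h) and 1.74 and 1.25 (120 h) RPKM (log2 fold change -3.20, SE 0.12, adjusted p = 5.16e-07). Angpt1, a ligand of the receptor Tie2, measured 50.1 and 54.3 (untreated), 33.2 and 43 (40 h), 6.51 and 6.46 (72 h) and 0.141 and 0.13 (120 h) (log2 fold change -2.83, SE 0.13, adjusted p = 1.63e-06). For these 3 genes 72 h lay below every 40 h library and above every 120 h library.

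Not every progenitor gene was called. Myb, a transcription factor of dividing progenitors, measured 235 and 244 RPKM in untreated cells and 219 and 267 at 72 h (0.01, SE 0.16, adjusted p = 0.95), against 39.5 and 28.8 at 120 h (log2 fold change 2.81, SE 0.16, adjusted p = 2.27e-06). The 5 members called higher were the surface protein gene Prom1 (2.57) and the transcription factor genes Fli1 (0.68), Runx1 (0.52), Ikzf2 (0.29) and Ets2 (0.29). Without any 1 of the 4 libraries the count of higher members was 3.

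The 15 genes of the largest fall varied in their known roles. Aebp1, a secreted protein of connective tissue, measured 83.8 and 76.6 RPKM in untreated cells, 29.5 and 39.3 at 40 h and 0.345 and 0.281 at 72 h (log2 fold change -5.95, SE 0.12, adjusted p = 1.54e-07). Gas6, the ligand of the TAM receptors, measured 66.3 and 62.4 (untreated), 25.6 and 32.5 (40 h) and 0.355 and 0.506 (72 h) (log2 fold change -5.52, SE 0.14, adjusted p = 1.6e-07). Mmp14, a membrane metalloproteinase, measured 42.8 and 43.1 (untreated), 26.7 and 29 (40 h) and 0.529 and 0.507 (72 h) (log2 fold change -4.86, SE 0.25, adjusted p = 2.81e-06). In all 3 the 40 h libraries had moved part of the way down. Nrgn, Ctla2a, Cd72, Serpinf1, Myl4, Depp1, Slc45a3, Tmem132a, Slc22a3 and Spns2 lay between -4.69 and -3.91, with adjusted p of 1.49e-07 to 4.09e-05.

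Lymphoid genes, which the untreated cells expressed, formed part of this loss. Of 22 listed 16 were tested, with 11 lower and 2 higher (median -1.87; -2.96 with a pseudocount of 0.1, -0.99 with 5 and -3.11 with voom). Igll1, a surrogate light chain of early B cells, measured 163 and 141 RPKM in untreated cells and 4.47 and 3.34 at 72 h (log2 fold change -4.97, SE 0.14, adjusted p = 2.13e-07), Rag2, a subunit of the recombinase, 30.6 and 28.7 RPKM in untreated cells and 1.76 and 1.56 at 72 h (log2 fold change -3.52, SE 0.09, adjusted p = 1.54e-07), and Thy1, a surface antigen of T cells and early progenitors, 25 and 26.7 RPKM in untreated cells and 0.123 and 0.104 at 72 h (log2 fold change -4.59, SE 0.21, adjusted p = 1.71e-06). Ighm, the immunoglobulin heavy constant mu gene, went the other way, from 3.47 and 3.06 to 46.6 and 45.8 (log2 fold change 3.47, SE 0.13, adjusted p = 5.74e-07), and the adaptor gene Blnk was called higher (0.50). The higher count was 1 with a pseudocount of 5, without untreated replicate 2 or without 72 h replicate 2. The summed level fell from 366 and 337 to 91.5 and 90 RPKM, and the T cell gene Cd3e and the B cell gene Pax5 were at most 0.112 RPKM in the 4 libraries. Erythroid and megakaryocyte genes (10 tested of 22) had 6 lower, among them Gp9 (-2.45), Car2 (-2.08) and Zfpm1 (-1.99), and 3 higher, the transferrin receptor Tfrc (2.03), Pf4 (1.02) and Apoe (0.77), a count of higher genes that was 1 without 72 h replicate 2. The globin genes Hba-a1, Hbb-bt and Hbb-bs were at most 0.573 RPKM in the 4 libraries.

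Few cell cycle genes were called. Of 38 S phase genes, all tested, 1 was called higher and 2 lower (median 0.00; 7 and 7 without the 120 h group), and of 36 G2 and M phase genes 1 was higher and none lower (median -0.16). Pcna, the sliding clamp of replication, measured 220.4 and 216 RPKM in untreated cells, 218 and 210.2 at 72 h and 128 and 71.7 at 120 h, and Top2a, topoisomerase II alpha, 142 and 138 (untreated), 138 and 142 (72 h) and 87.9 and 52.3 (120 h). Neither was called against untreated (log2 fold changes -0.03 and 0.00, SE 0.22 and 0.20), and both were called higher than at 120 h (1.15 and 1.03, adjusted p = 0.0015 and 0.00159). The called ones were Cdc45 (0.59), Cenpe (0.44), Chaf1b (-0.82) and Gins2 (-0.39), but the call of Cdc45 was lost without any 1 of the 4 libraries (adjusted p = 0.0796 to 0.118) and that of Cenpe without untreated replicate 1, untreated replicate 2 or 72 h replicate 2 (0.0758 to 0.165). Without those same 3 libraries Chaf1b lost its call too (0.0593 to 0.0787). The count of 0 G2 and M phase genes called lower rested on the spread of the 120 h libraries: without that group 17 were called lower, with only the 2 groups fitted 14, with array weights 13 and with voom 2. At an unadjusted p under 0.05 in limma the count was 4.

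Genes for making ribosomes rose by small amounts in part. All 33 ribosome biogenesis and Myc target genes were tested, with 13 higher and none lower than in untreated cells (median 0.34; none lower also at an unadjusted p under 0.05 in limma), a count that was 7 without untreated replicate 1 or 72 h replicate 2 and 23 without the 120 h group. Utp20, a factor of the small subunit processome, measured 8.09 and 8.04 RPKM in untreated cells and 18.3 and 18.5 at 72 h (log2 fold change 1.10, SE 0.13, adjusted p = 0.000248), Nat10, an RNA acetyltransferase, 17.2 and 17.1 RPKM in untreated cells and 29.7 and 34.5 at 72 h (log2 fold change 0.86, SE 0.10, adjusted p = 0.000345), and Rrp12 15.8 and 15.3 RPKM in untreated cells and 32.6 and 31.6 at 72 h (log2 fold change 1.00, SE 0.17, adjusted p = 0.00238). Npm1, the most abundant, was not called (1253 and 1270 RPKM in untreated cells and 1259 and 1153 at 72 h). The genes for the ribosomal proteins themselves had a median of -0.52, which was -0.21 with quantile normalization. Of these 35 genes 4 were called lower (11.4%), where 22.3% of all tested genes were. They were Rps27 (-0.91), Rps15 (-0.66), Rpl37 (-0.61) and Rpl22 (-0.59), and 32 were called lower without the 120 h group. Without untreated replicate 1, untreated replicate 2 or 72 h replicate 2, 1 was called lower, and Rps15, Rpl37 and Rpl22 lost their calls (adjusted p = 0.0584 to 0.197). All 35 stood lower in 72 h replicate 2 than in replicate 1.

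Of 34 tested nuclear genes for oxidative phosphorylation 5 were called lower, where 22.3% of all tested genes were. Among the 5 were Ndufa4 (-1.21), Sdhb (-0.55), Ndufv1 (-0.54) and Ndufs7 (-0.39). In the same list 15 were called lower without the 120 h group. The call of Ndufv1 was lost without untreated replicate 1, untreated replicate 2 or 72 h replicate 2 (adjusted p = 0.111 to 0.188), and 3 were called lower in each case. Of 11 tested genes of the mitochondrial genome 6 were higher (median 0.71): mt-Nd4 measured 582 and 492 RPKM in untreated cells and 1084 and 1222 at 72 h (log2 fold change 1.10, SE 0.20, adjusted p = 0.00268), and mt-Cytb 832 and 797 RPKM in untreated cells and 1620 and 1757 at 72 h (log2 fold change 1.05, SE 0.20, adjusted p = 0.00351). Without untreated replicate 2 or 72 h replicate 2, 3 of them were called.

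Among metabolic genes more were called lower than higher. Of 28 glycolysis and hypoxia genes 17 were lower and 2 higher (median -0.51). Ankrd37, a target of hypoxia inducible factor, fell from 33.1 and 29.4 to 3.37 and 4.25 RPKM (log2 fold change -2.75, SE 0.16, adjusted p = 5.76e-06), the glucose transporter gene Slc2a3 from 22.4 and 22 to 2.82 and 3.53 (log2 fold change -2.48, SE 0.13, adjusted p = 3.82e-06) and the prolyl hydroxylase gene Egln3 from 234 and 219.8 to 77 and 78.5 (-1.53). Hk2 (0.52) and Vegfa (0.75) were higher, where 1 gene was without untreated replicate 2 or without 72 h replicate 2, and Gapdh was not called (-0.29). Of 25 tested Atf4, serine and one-carbon genes 13 were lower and none higher in limma (median -0.41; 0 higher at an unadjusted p under 0.05, and 3 without the 120 h group). Trib3, a pseudokinase induced by Atf4, fell from 26.9 and 22.9 to 5.6 and 4.93 (log2 fold change -2.04, SE 0.15, adjusted p = 1.85e-05) and Ddit3, the stress factor CHOP, from 129.6 and 128 to 52 and 46.8 (log2 fold change -1.37, SE 0.10, adjusted p = 1.58e-05), while Atf4 itself was not called (0.01, SE 0.10).

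Of the unfolded protein response genes 12 of 26 were higher and 3 lower (median 0.36), although leaving out untreated replicate 1, untreated replicate 2 or 72 h replicate 1 left 7 higher. Xbp1, its central transcription factor gene, rose from 26.7 and 30 to 51.3 and 56.1 RPKM (log2 fold change 0.90, SE 0.11, adjusted p = 0.000281). The chaperone gene Hyou1 rose from 60.3 and 65.2 to 107 and 104 (0.74). Hspa1b (-0.85), Herpud1 (-0.54) and Dnajb1 (-0.39) were lower. Cholesterol synthesis had 4 higher and 4 lower of 24 tested (16.7% each), where 21.6% and 22.3% of all tested genes were. Among the higher ones were Sc5d (1.06), Hsd17b7 (0.94) and Insig1 (0.33). The lower ones were Tm7sf2 (-0.60), Hmgcs1 (-0.48), Pmvk (-0.48) and Fdft1 (-0.46). Without untreated replicate 1 or untreated replicate 2, 2 were higher and 1 lower, and Tm7sf2 lost its call (adjusted p = 0.0539 and 0.0528).

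Feedback genes of growth factor signalling fell in part. Of 29 tested Stat, Socs and ERK feedback genes 16 were lower and 2 higher (median -0.40). Etv4, a transcription factor induced by ERK, measured 9.27 and 9.54 RPKM in untreated cells and 0.613 and 0.606 at 72 h (log2 fold change -2.69). Its relative Etv5 measured 12.3 and 12.6 RPKM in untreated cells and 2.75 and 2.71 at 72 h (-1.85). The phosphatase gene Dusp4 fell from 3.74 and 3.94 to 0.227 and 0.169 (-2.01) and the ERK inhibitor gene Spry4 from 7.67 and 7.04 to 0.436 and 0.531 (-2.49). Stat4 (1.20) was among the higher ones. Cdkn1a, the cell cycle inhibitor p21, fell from 30 and 30.2 to 6.78 and 7.76 (log2 fold change -1.91, SE 0.09, adjusted p = 2.28e-06), and the immediate early gene Fos rose by 1.62, without a call when untreated replicate 1 (adjusted p = 0.0618) or 72 h replicate 2 (0.0526) was left out. Both belong to a list of 20 genes of cell stress and RNA quality, of which 18 were tested, with 3 higher, Fos, Jun (1.02 and 0.902 RPKM in untreated cells and 3.56 and 5.71 at 72 h) and Gadd45a (0.99), and 8 lower (median -0.26). In 16 of the 18 genes 72 h replicate 2 stood above replicate 1, by a median of 0.18 on the log2 scale, and the part of RNA quality in the other results was not tested. Among apoptosis regulators 7 of 21 (33.3%) were higher and 5 (23.8%) lower, where 21.6% and 22.3% of all tested genes were. The higher ones included the close copies Bcl2a1b (1.25), Bcl2a1d (1.00) and Bcl2a1a (0.93). Lower ones included Bbc3 (-0.80), Casp8 (-0.69), Bcl2 (-0.67) and Bak1 (-0.33). Fewer were called lower without untreated replicate 1, untreated replicate 2 or 72 h replicate 2. Among 40 tested genes for chromatin enzymes the Polycomb genes Cbx2 (-2.09) and Pcgf2 (-0.97) were lowest. The list's share called lower (22.5%) was close to the 22.3% of all tested genes, and its share called higher was below their 21.6%. Of the 40 genes 6 were called higher and 9 lower, with a median of 0.05. None was called higher without untreated replicate 1 or without 72 h replicate 2.

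The 72 h group was tested directly against the 40 h group. The 40 h cells had 80 h of add-back and the 72 h cells 48 h, so longer withdrawal and shorter recovery cannot be told apart. Against the 40 h libraries 1810 genes (13.9%) were higher at 72 h and 1794 (13.8%) lower, with a median of 0.02 over all tested genes. The counts rested on the spread of the 120 h group and on single libraries: 3011 and 3071 without the 120 h group, 880 and 1097 without 40 h replicate 1, 1048 and 1025 without 40 h replicate 2, and 914 and 1111 without 72 h replicate 2. The 6 highest by the naming rule were Chil3 (6.77), S100a9 (5.76), S100a8 (5.74), Lyz1 (5.09), Retnlg (4.74) and Stfa1 (4.59), with adjusted p of 2.06e-06 to 6.27e-05. In the 40 h libraries these 6 genes stood at 0.045 to 3.22 RPKM, and in untreated cells at 0.113 to 1.33. The 6 lowest were Aebp1 (-4.74), Igll1 (-4.60), Gas6 (-4.39), Mmp14 (-4.25), Nrgn (-4.03) and Cd72 (-3.71).

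In this comparison the lists differed as follows. Of 26 secondary granule genes 20 were higher at 72 h than at 40 h, of 36 monocyte and macrophage genes 26, of 33 late neutrophil genes 22, and of 18 primary granule genes 11, while 20 of 29 progenitor genes were lower. Of the S phase, G2 and M phase and ribosome biogenesis genes 0 of 38, 0 of 36 and 2 of 33 were higher and 1, 0 and 0 lower in limma. At an unadjusted p under 0.05 there were 1, 1 and 6 higher and 2, 0 and 0 lower. Elane, Ms4a3 and Prg2 stood above every untreated library at 40 h, and were higher still at 72 h by 2.73, 3.18 and 2.78 on the log2 scale (adjusted p = 0.00205, 0.000523 and 0.00264).

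**Figure D4:**
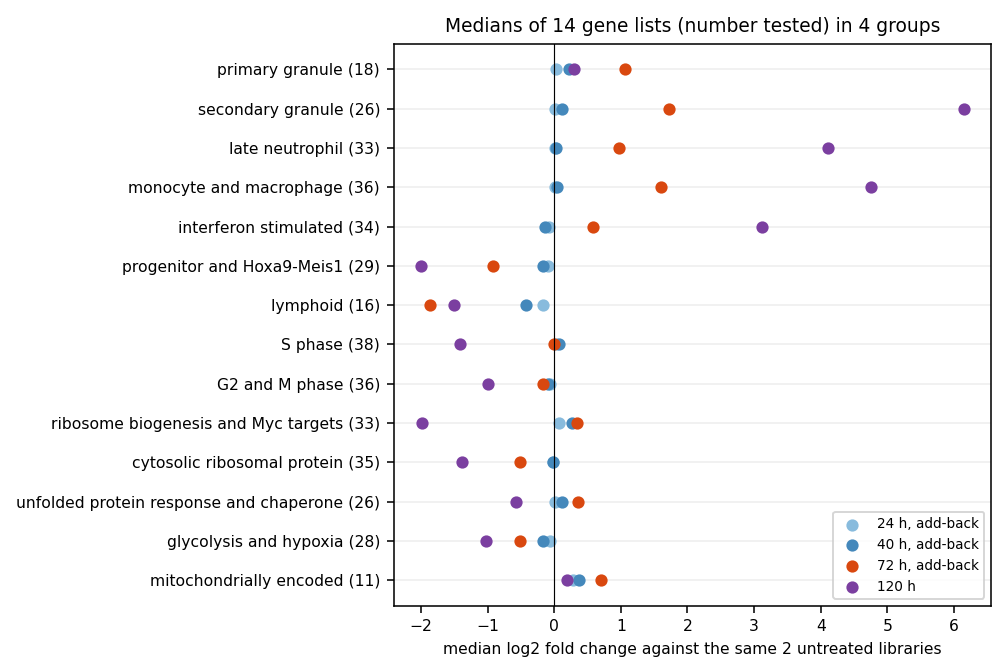
Median log2 fold change (horizontal axis) of 14 gene lists (rows) in the 24 h, 40 h, 72 h and 120 h groups, each against the same 2 untreated libraries. Primary granule genes (1.06) and mitochondrially encoded genes (0.71) have their highest median at 72 h, secondary granule genes stand at 1.72 at 72 h and 6.15 at 120 h, and S phase genes at 0.00 and -1.42.

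Against continuous withdrawal for 120 h more genes were called than against untreated cells. Here 6636 genes (51.0%) were higher at 72 h and 3435 (26.4%) lower, with a median of 0.32 over all tested genes, so 65.9% of the calls were higher. The 120 h libraries differed most from each other, and the shared spread includes tighter groups. Fewer genes were called with only the 2 groups fitted (5540 and 2822) or with array weights (5452 and 2814). With median-of-ratios scaling the median was 0.01 and the counts were 4576 and 4807 (48.8% higher), and with quantile normalization the median was 0.15 and 58.0% of the calls were higher. Directions below held under both scalings unless stated. All 33 ribosome biogenesis genes stood higher at 72 h (median 2.31), as did 38 of 38 S phase genes (1.37; 32 with median-of-ratios scaling), 30 of 36 G2 and M phase genes (0.84; 16 with that scaling) and 19 of 29 progenitor genes (0.90; 17 with that scaling). All 26 secondary granule genes, all 33 late neutrophil genes, all 24 cytokine genes and 33 of 34 interferon stimulated genes stood lower. Of these 4, 4, 8 and 9 reached the minimum level through the 120 h libraries alone, so for them the minimum itself favours a lower level at 72 h. Glycolysis and hypoxia genes were 16 higher and 6 lower, which median-of-ratios scaling turned to 7 and 11.

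The highest genes against 120 h were Cnn3, an actin-binding calponin (38.5 and 38.6 RPKM at 72 h and 0.851 and 0.293 at 120 h, log2 difference 4.68), Ctsg (3.95), Mpo (3.88), Chchd10 (3.77), the mucin Muc13 (3.72) and Samd4 (3.65). Mpo measured 463 and 178 RPKM at 120 h, below its untreated level, and so lay highest in the 72 h group. The lowest were Camp (-6.83), Ngp (-6.82), Stfa3 (-6.75), Stfa2l1 (-6.55), Ltf (-6.53) and Stfa2 (-6.26).

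A set of genes stood outside both ends, that is, were called in the same direction against untreated and against 120 h. Against untreated cells 27.5% of the tested genes were called higher and 52.7% lower at 120 h. Both comparisons use the same 72 h libraries, and the 12 strongest on each side were chosen by this pattern, so their values are a description. Above both were Elane, Ms4a3 and Prg2 (values above), Prtn3 at 1455 and 1330 RPKM against 556 and 235 at 120 h, and Far2, a fatty acyl reductase, at 0.325 and 0.75 in untreated cells, 51.9 and 50.4 at 72 h and 17.2 and 8.77 at 120 h. Tfrc, which takes up iron, measured 37.7 and 33.7 (untreated), 147 and 150.3 (72 h) and 31.1 and 21.1 (120 h), and Pdcd4, an inhibitor of translation, 43.2 and 45.5 (untreated), 145 and 156 (72 h) and 28 and 29 (120 h). Met, the receptor for hepatocyte growth factor, measured 3.17 and 3.32 (untreated), 17.2 and 15.9 (72 h) and 3.57 and 2.65 (120 h), and Tfec is described above. Nrg2 (a neuregulin) and the small RNA genes Snord16a and Rpph1 completed the 12. In each of the 12 both 72 h libraries lay above all untreated and 120 h libraries. With array weights, the difference of Prg2 from 120 h had an adjusted p of 0.118.

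Below both were Gsn, Cd9, Tpm4 and 9 other genes. Gsn, gelsolin, which severs actin filaments, measured 143 and 133 RPKM in untreated cells, 53.4 and 63.1 at 40 h, 18.1 and 25.5 at 72 h and 384 and 355 at 120 h. Cd9, a tetraspanin, measured 50.4 and 40.1 (untreated), 24.4 and 24.6 (40 h), 8.18 and 11.3 (72 h) and 135 and 141 (120 h), and Tpm4, a tropomyosin, 56.6 and 55.3 (untreated), 30.1 and 34.4 (40 h), 3.43 and 6.49 (72 h) and 54 and 77.5 (120 h). In all 3 the 40 h libraries lay between the untreated and the 72 h libraries, and the 120 h libraries lay above those of 72 h. Slc2a3, Mmp14, S1pr1, Krt80, Plxnb2, Tbc1d10c, Rbpms, Rab37 and Ndufa4l2 had the same order, with log2 differences from 120 h of -3.71 to -2.10.

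**Figure D5:**
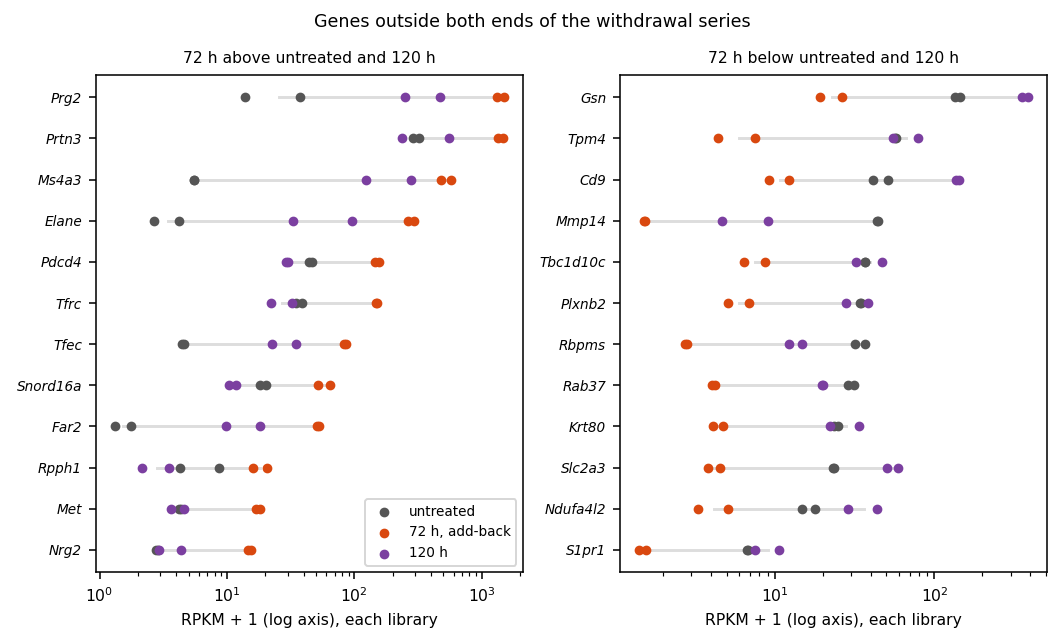
RPKM + 1 on a log axis (horizontal) of the 12 strongest genes above (left) and below (right) both ends, with each untreated, 72 h and 120 h library as a point and a grey line over the range of the group means. The 72 h points lie outside the other 4 in every row, as the choice of these genes requires.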

How the data were processed

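Total RNA of 10 libraries was read on the files the authors deposited: RPKM per Ensembl transcript, 79535 transcripts in each. The submitters' processing notes name STAR and GRCm38. The counting program, its use of strand and the annotation release are not stated in any label or header read here, so overlapping genes and close copies are uncertain. Identifiers were matched to GENCODE M21 (77720, 97.7%), and each gene was represented by 1 principal coding transcript chosen from the annotation. Genes with RPKM of at least 1 in 2 or more of the 10 libraries (13004) were tested on log2(RPKM + 1) with a 2-sided moderated test (limma 3.58.1, R 4.3.3, trend on), modelling only the group, all 10 libraries sharing 1 spread (5 residual and 3.04 prior degrees of freedom) and Benjamini-Hochberg adjustment over all tested genes. All adjusted p-values are from this fit unless a setting is named. RPKM divided by its smallest step gave whole reads within 0.02 reads for 100% of 721 to 926 values per library, and these recovered reads entered limma's voom as an alternative. Scripts were checked on simulated data.

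The members and the 31 lists were chosen with earlier results of these data known. Named were Hoxa9, Meis1, Esr1, Kit and Lyz2, the 15 highest and 15 lowest called genes whose libraries did not overlap and whose higher group averaged 5 RPKM or more, leaving out predicted genes (6 and 6 against 40 h and 120 h), the 12 strongest outside both ends, and per list up to 4 called and 2 uncalled genes. Exceptions given beside counts were named after their values were seen. Sequences are from RefSeq (GRCm38.p6). Some list members are not reported here.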

Additional observations from a re-analysis of the deposited data

Results flagged for a closer look

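A total of 17 named genes were called in 1 direction at 72 h against untreated cells and in the other direction at 120 h against the same untreated libraries, with the difference between 72 h and 120 h itself called in limma. Higher at 72 h and lower at 120 h than in untreated cells were 11 genes, with log2 differences of 72 h from 120 h of 2.73 for Rpph1, 2.66 for Nat10, 2.49 for Tfrc, 2.40 for Snord16a, 2.36 for Pdcd4, 2.29 for Rrp12, 2.14 for Utp20, 1.70 for Bop1, 1.36 for Hyou1, 1.19 for Cdc45 and 0.89 for Cenpe. Lower at 72 h and higher at 120 h were 6 genes, with differences of -2.58 for H2-DMa, -2.59 for S1pr1, -3.12 for Ndufa4l2, -3.71 for Slc2a3, -3.71 for Cd9 and -4.04 for Gsn. Nat10, Rrp12, Utp20 and Bop1 belong to the ribosome biogenesis list, and Rpph1 is the RNA component of RNase P. Hyou1 is a chaperone of the endoplasmic reticulum. Over all tested genes the median log2 fold change of 120 h against untreated cells was -0.36. Whether the 11 genes stay lower at 120 h than in untreated cells under another scaling is not given here. Median-of-ratios scaling divides the untreated libraries by 1.07 and 1.08 and the 120 h libraries by 0.813 and 0.799. It therefore raises the 120 h levels against the untreated ones. The calls of Cdc45 and Cenpe at 72 h depended on single libraries, as given above.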

How the results depend on the processing

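Over 22 alternatives the 651 named gene results gave 14078 values, of which 13332 kept their direction and their side of the threshold, 347 lost the call, 393 gained it and 6 turned. The 6 were against 120 h: with median-of-ratios scaling Sc5d (-0.28), Pkm (-0.38), Sdhb (-0.068), Hdac1 (-0.037) and Pknox1 (-0.15), and with quantile normalization Pkm (-0.29). Of 2046 list values 199 moved. Leaving out 1 library gave 1594 to 3945 genes higher and 1890 to 3932 lower against untreated, 880 to 3012 and 1025 to 3070 against 40 h, and 6051 to 6732 and 3047 to 3758 against 120 h. Without the 120 h group, whose libraries differed most from each other, 3945 and 3931 genes were called against untreated and 3011 and 3071 against 40 h.

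The labels do not say that replicate numbers pair the libraries. Deviations of same-numbered libraries correlated positively in every pair of groups, at 0.36 for 40 h with 72 h, 0.41 for 40 h with 120 h and 0.64 for 72 h with 120 h. Not every pair correlated above 0.1: the values were 0.03 for untreated with 72 h and 0.09 for untreated with 40 h. The pairs not named here lay at 0.13 to 0.27. Numbers were therefore not used as a block in the main design. A replicate block gave 3244 higher and 3197 lower against untreated, 2324 and 2113 against 40 h, and 6837 and 3587 against 120 h. With 2 libraries a group, a lone library in a leave-one-out fit was assumed to vary like the others.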

Other observations

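Small nucleolar RNA genes, which guide the modification of ribosomal RNA and lie mostly in introns of host genes, leaned upward at 72 h. Of 136 tested 46 were called higher and 2 lower than in untreated cells, with a median log2 fold change of 0.74, against 2457 higher and 2465 lower of 10756 protein-coding genes with a median of 0.02. Processed pseudogenes, which are copies of other genes, were seldom called higher (52 of 827), and their median log2 fold change was -0.18. The share of them called lower (187) was close to that of protein-coding genes, so they differed in having few raised members. Reads of small RNA genes and of their host genes were not separated here.

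The 2 libraries of the 72 h group differed from each other by list. Replicate 2 stood above replicate 1 in 34 of 34 interferon stimulated genes, 33 of 36 monocyte and macrophage genes, 22 of 24 cytokine genes and 27 of 28 cytokine receptor genes, and below it in all 35 ribosomal protein genes and 33 of 34 nuclear oxidative phosphorylation genes. In the untreated pair replicate 2 stood above replicate 1 in 17 of the 34, 14 of the 36, 15 of the 24, 19 of the 28, 25 of the 35 and 12 of the 34 genes. The split was not particular to the 72 h pair: at 120 h replicate 2 stood above replicate 1 in 33 of the 34, 27 of the 36, 17 of the 24, 23 of the 28, 0 of the 35 and 0 of the 34 genes, and at 40 h in 26, 16, 15, 20, 0 and 1 of them. The medians of these lists' differences at 72 h ran from -0.24 to 0.45 on the log2 scale. Over all 13004 genes 7052 stood higher in 72 h replicate 2.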
